A study of Mus musculus with 9 samples.

Results

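TGF-beta and BMP signaling genes were described in normal and tumor oviducts of the mouse, as 54 genes of the ligands, binding proteins, receptors, antagonists, Smad proteins and Id genes of the pathway. They were chosen by symbol, and all 54 were found among the 19435 genes of the expression table. The libraries were poly-A RNA-seq of primary tissue with no treatment. There were 5 normal oviducts, of which oviducts 1 to 3 had the genotype Dicer1+/D1693N and oviducts 4 and 5 were Dicer1+/+, and 4 primary tumors of the oviduct with the genotype Dicer1ko/D1693N. None of the normal oviducts carried the Dicer1ko allele, so the tumor state and that allele cannot be told apart. The sources used here name neither a Cre line, nor ages, nor whether libraries came from separate animals, and p-values measure only the spread between these samples, which may be technical. In a bulk sample, fewer cells of a type and less RNA per cell cannot be told apart.

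TGF-beta is secreted in a latent form that is bound to latent TGF-beta binding proteins and is released by integrins, thrombospondin or proteases. The released dimer joins type II and type I receptor kinases, which phosphorylate Smad2 and Smad3 for TGF-beta and activins and Smad1, Smad5 and Smad9 for BMPs; these enter the nucleus with Smad4. Smad6 and Smad7 inhibit the pathway and are themselves induced by it, Id genes are direct targets of the BMP branch, and noggin, chordin, gremlin and follistatin keep ligands from their receptors. In the female reproductive tract these ligands are known for shaping the Müllerian duct, in which AMH brings regression in males, and for signaling between epithelium and stroma. Dicer is the ribonuclease that cuts microRNA hairpins, and the D1693N change lies in the RNase IIIb domain, which cuts the 5p arm.

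The libraries held between 8504993 and 12526078 reads in the oviducts and between 8732190 and 11267144 in the tumors, as recovered from the deposited values. Dicer1 was read at 904 to 1237 normalized counts in the oviducts and 576 to 1379 in the tumors, and these totals do not tell the alleles apart. Markers of ciliated epithelium summed to 21698 to 34720.1 normalized counts in the oviducts and 134 to 1014 in the tumors, and 10 of 10 were lower. Markers of secretory epithelium were present in the oviducts, at a sum of 101308 to 180358, and at 19174 to 30550.4 in the tumors, where 3 of 10 were lower. Without Ovgp1, the oviduct glycoprotein gene, the other 9 summed to 23164 to 29739 in the oviducts and 11112 to 30425 in the tumors, with tumor 4 highest. Of 10 fibroblast and stroma markers 5 were higher in the tumors (sums of 29395 to 60045 against 141363 to 149592), as were 7 of 10 endothelial markers (2619 to 4436 against 5584 to 12324) and 7 of 9 macrophage markers (4067 to 6389 against 6810.4 to 52777). The collagen genes Col1a1, Col1a2 and Col3a1 had the highest counts of the fibroblast and stroma list in every tumor. Pdgfra and Pdgfrb were also higher, and Dcn, Dpt, Lum, Thy1 and Vim were not called. Without Lyz2 the macrophage sums met, at 2886.0 to 3812 against 3262 to 24912. Of 10 smooth muscle markers 6 were lower (28057 to 59189 against 3419 to 57109), with the highest tumor sum in tumor 1, and 6 of 8 mesothelium markers were lower (8623 to 11476 against 3888 to 10417). Without Krt19 the mesothelium sums did not overlap, at 4998 to 7158 against 896 to 2579.7. None of the 10 fat cell markers was called, but their sum was 97140.1 in tumor 4 against 453 to 1606 in the other tumors and 3374 to 18150.1 in the oviducts; in tumors 1 to 3, Adipoq and Lep were at 0. In none of these 8 lists was a marker at 0 in every tumor or in every oviduct. Of the cartilage markers 4 of 8 were higher and 2 lower (sums of 1034 to 1259 against 901 to 1960, and of 243 to 539 against 731 to 1662 without Sox9). Of the skeletal muscle markers 2 of 7 were higher (2669.7 to 8398 against 945 to 4329, and 19.0 to 31.4 against 49.5 to 1229.8 without Des). Of the oocyte markers none of 7 was called (23.4 to 109 against 4.9 to 48.8). Myog was at 0 in every oviduct and Zp2 in every tumor. The part of these cell types in the changes of the pathway genes was not tested.

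Among the pathway genes, 16 of 54 were higher in the tumors, 1 was lower and 37 were not called. The call required an adjusted p under 0.05 in limma over all 19435 genes and a change of at least 1 on the log2 scale; the same rule called 6.53% of all genes higher and 12.1% lower, against 29.6% and 1.85% of the pathway genes. The median log2 change was 0.61 over the pathway genes and -0.05 over all genes. Tumor and oviduct libraries did not overlap for 18 of 54 genes. In 17 of them, or 31.5%, every tumor was above every oviduct, against 10.8% of all genes; in 1 every tumor was below, against 16.8% of all genes. With quantile normalization the median of all genes moved by 0.13 to 0.08, the calls over all genes moved from 1269 higher and 2356 lower to 1696 and 1943, and 20 pathway genes were higher and 1 lower. The genes that rose included the ligands Tgfb1 and Tgfb2, the type I receptor Tgfbr1, both inhibitory Smads and 3 of 4 Id genes. No gene was called higher among the activin, inhibin and AMH subunits, the type II and type III receptors, and the receptor-activated Smads with Smad4. The gene that fell was the BMP type I receptor Bmpr1b.

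**Figure D1:**
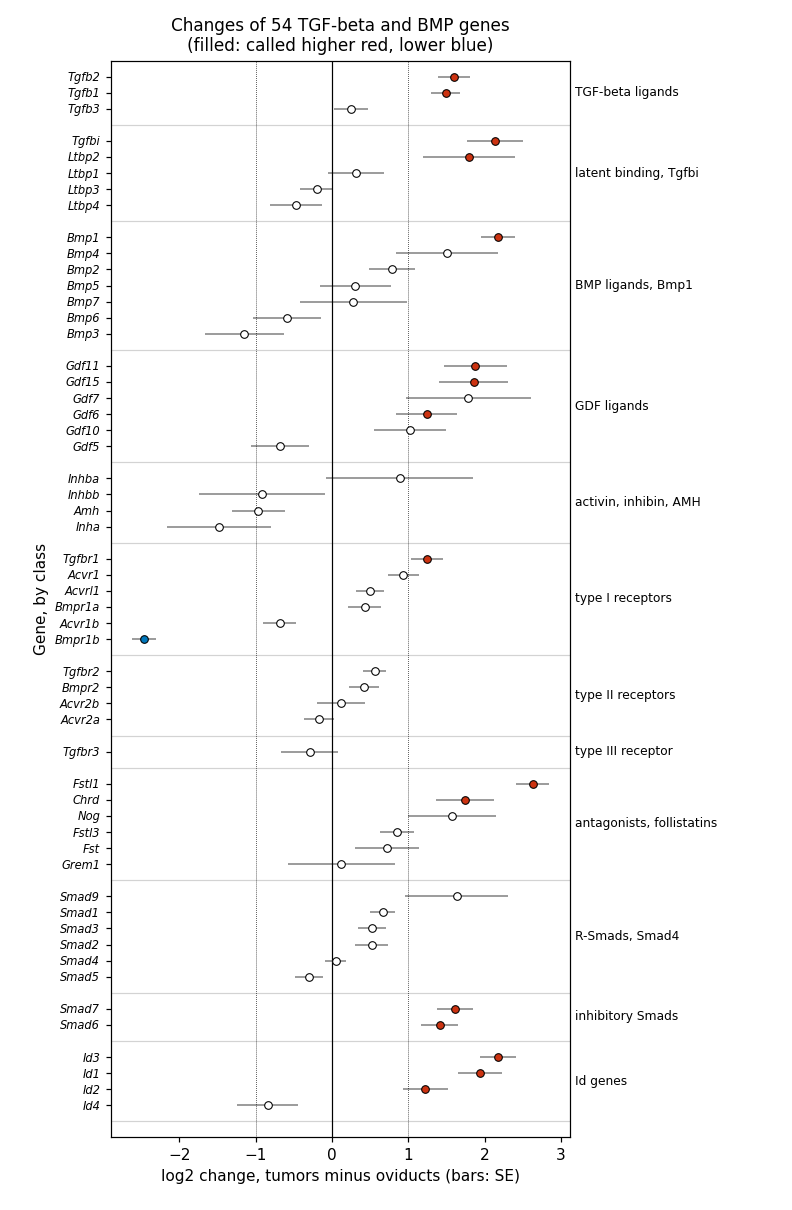
Each point is the log2 change of 1 of the 54 genes between 4 tumors and 5 oviducts, with its standard error as a bar, ordered within 12 classes; filled points were called and dotted lines mark log2 changes of -1 and 1. The called genes lie between 1.22 (Id2) and 2.63 (Fstl1) on the higher side, and Bmpr1b stands alone at -2.46.

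Values are normalized read counts, given for oviducts 1 to 5 and then for tumors 1 to 4, and changes are on the deposited log2 scale with their standard error (SE). That scale compresses low counts, so the log2 change of a gene with few reads understates the ratio of its counts.

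Of the 3 TGF-beta ligands, Tgfb1 and Tgfb2 rose and Tgfb3 was not called. Tgfb1 (chr7:25687002-25705077), the isoform that is most widely made by immune and stromal cells, was at 232, 201, 183, 212 and 209 in the oviducts and at 572, 638, 442 and 895 in the tumors. Every tumor was above every oviduct, with tumor 4 highest, and the change was 1.49 ± 0.19 (SE) (adjusted p = 0.000256). Tgfb2 (chr1:186622792-186705989), which is best known for its part in development, was at 368, 389, 252, 217 and 269 against 815, 1196, 1031 and 741. Its groups did not overlap either, the order of the tumors was another one, with tumor 2 highest and tumor 4 lowest, and the change was 1.60 ± 0.21 (SE) (adjusted p = 0.000265). Tgfb3 was at 884, 886, 768, 836 and 618 and 1109, 674, 1454 and 738, so tumors 2 and 4 lay within the range of the oviducts (change 0.25 ± 0.23 (SE), adjusted p = 0.428). Per kilobase of exon, the mean level in the oviducts was 236 ± 33.0 for Tgfb3 against 51.6 ± 13.0 for Tgfb2 and 41.1 ± 3.54 for Tgfb1 (SD, n = 5), and in the tumors 294 ± 107, 163 ± 35.8 and 126 ± 37.7 (SD, n = 4). Tgfb3 therefore stood above the other 2 in the oviducts by more than the spread, while in the tumors its ratios to the means of Tgfb2 and Tgfb1 were smaller and the ranges of Tgfb3 and Tgfb2 per library met.

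Of the latent TGF-beta binding proteins and the TGF-beta induced matrix protein, Tgfbi and Ltbp2 were higher. Tgfbi (chr13:56609523-56639562) encodes an extracellular matrix protein that TGF-beta induces in many cells. It was read at 2007, 2035, 1471, 2077 and 697 in the oviducts and 9436, 8476, 7585 and 3667 in the tumors, so tumors 1 to 3 lay close together, and tumor 4, though lowest, was above every oviduct (2.14 ± 0.37 (SE), adjusted p = 0.00163). Ltbp2 (chr12:84783212-84876532), which binds fibrillin fibers and, unlike the other binding proteins of its family, does not bind latent TGF-beta, was at 496, 639, 396, 184 and 176 and 873, 1116, 477 and 4630.4. Here tumor 3 lay below oviducts 1 and 2 and tumor 4 far above all others, and the call (1.80 ± 0.60 (SE), adjusted p = 0.0439) did not hold without tumor 4 (1.16, adjusted p = 0.0636); it was lost as well without oviduct 1, 3, 4 or 5 or tumor 1 or 2, with an adjusted p of up to 0.0974 over the libraries left out in turn. Ltbp4, the binding protein with the highest mean per library in this class, was at 6327, 6165, 4056, 4734 and 3405 against 4511, 2917, 6197 and 1755, and the groups overlapped (-0.47 ± 0.34 (SE), adjusted p = 0.331). The changes of Ltbp1 (0.31 ± 0.37 (SE)) and Ltbp3 (-0.20 ± 0.22 (SE)) were smaller than that of Ltbp2, and neither was called (adjusted p = 0.56 and 0.517).

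**Figure D2:**
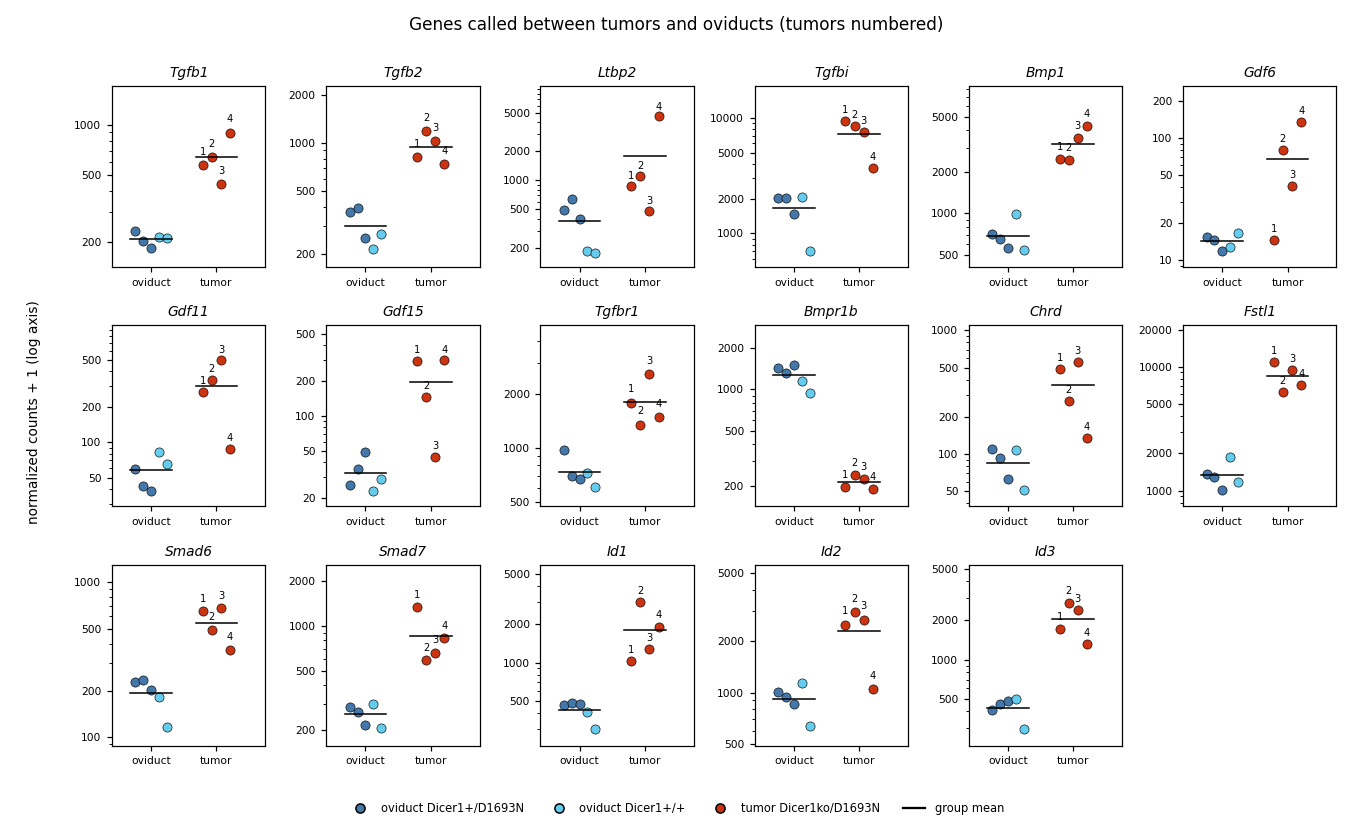
Normalized counts plus 1, on a log axis that differs between panels, for each of the 17 called genes: points are libraries, colored by genotype, numbers mark the tumors and lines are group means. For Bmpr1b the tumors lie between 187 and 238 and the lowest oviduct is at 943, while Ltbp2, Gdf6, Gdf15 and Id2 have at least 1 tumor within the range of the oviducts.

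Of the BMP ligands, which signal through Smad1, Smad5 and Smad9, none passed the test, and the protease named Bmp1 did. Bmp1 (chr14:70474558-70520234) is no ligand but a metalloproteinase that cuts procollagen and chordin. Its values were 701, 646, 561, 979 and 542 in the oviducts and 2474, 2454, 3513 and 4304 in the tumors, so that the lowest tumor was above the highest oviduct by more than the oviducts differ among themselves; the change was 2.17 ± 0.22 (SE) (adjusted p = 5.07e-05). The 6 ligands Bmp2 to Bmp7 gave log2 changes from -1.15 (Bmp3) to 1.50 (Bmp4) and none was called. The SD of the log2 values between tumors was 1.07 to 1.86 for Bmp3 to Bmp7 and 0.52 for Bmp2. Bmp4, a ligand of many developing tissues, was at 109, 154, 152, 97.5 and 115 in the oviducts and at 752, 311, 1354 and 58.9 in the tumors. Tumors 1 to 3 were above every oviduct and tumor 4 was below every oviduct, and the change over all 4 was 1.50 ± 0.67 (SE) (adjusted p = 0.114). Bmp7 showed the same arrangement, with 194, 207, 237, 154 and 124 against 585, 268, 510.0 and 18.9 (change 0.28 ± 0.70 (SE), adjusted p = 0.797). Bmp2 was at 67.0, 70.4, 46.8, 38.5 and 32.4 against 145, 110.2, 51.8 and 109: tumors 1, 2 and 4 were above every oviduct and tumor 3 was among them (0.79 ± 0.30 (SE), adjusted p = 0.0675). Bmp3, a divergent member that is known to oppose other BMPs, was at 74.8, 66.6, 84.6, 211 and 195 in the oviducts and at 37.9, 27.3, 11.3 and 156 in the tumors, of which tumors 1 to 3 were below every oviduct. In this gene the 2 Dicer1+/+ oviducts stood above the other 3, and tumor 4 lay between the 2 sets (-1.15 ± 0.52 (SE), adjusted p = 0.121). Bmp6 was at 123, 216, 116, 145 and 99.4 and 201, 141, 24.8 and 53.6, and Bmp5, the least read, at 4.5, 10.5, 12.9, 12.6 and 12.3 and 47.6, 20.4, 0 and 28.4. In both, the tumors ranged from below to near or above the highest oviduct, and neither passed (adjusted p = 0.344 and 0.655); a count of 0 in tumor 3 allows up to 3.38 normalized counts, from counting error only.

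Of the 6 growth and differentiation factors (GDFs), Gdf6, Gdf11 and Gdf15 were higher. Gdf11 (chr10:128882295-128891718), a relative of myostatin that signals like an activin, was at 58.0, 41.2, 37.8, 81.7 and 64.8 against 266, 341, 495 and 86.2. Tumors 1 to 3 were at several times the level of any oviduct and tumor 4 was just above the highest one, oviduct 4 (1.88 ± 0.41 (SE), adjusted p = 0.00634, and 0.081 against the Dicer1+/+ oviducts alone). Gdf15 (chr8:70629393-70632456), a divergent ligand that cells secrete under stress and that signals through a receptor outside this family, was at 24.6, 34.4, 47.8, 22.0 and 27.9 and 293, 143, 43.9 and 297, with tumor 3 below oviduct 3 (1.85 ± 0.45 (SE), adjusted p = 0.0105). Gdf6 (chr4:9844372-9862345), a BMP of joints and the skull, had few reads, with 14.5, 13.5, 10.9, 11.8 and 15.6 in the oviducts and 13.6, 79.5, 39.4 and 134 in the tumors. Tumor 1 lay within the oviducts, and the change of 1.24 ± 0.40 (SE) (adjusted p = 0.04) was lost when oviduct 1, 2, 3, 4 or 5 or tumor 2 or 4 was left out (adjusted p of up to 0.0995). Gdf7 had the largest ratio of means among the ligands, 12.6, from 8.9, 9.0, 17.9, 14.1 and 8.9 in the oviducts to 186, 131, 276 and 0 in the tumors. Tumors 1 to 3 were far above every oviduct, and no read of it was counted in tumor 4, which allows up to 3.15 normalized counts, from counting error only; it was not called (1.79 ± 0.81 (SE), adjusted p = 0.122). Gdf10, the GDF with the highest mean, was at 550.3, 296, 373, 472 and 367 against 1203, 995, 1728 and 232, again with tumors 1 to 3 above and tumor 4 below every oviduct (1.02 ± 0.47 (SE), adjusted p = 0.127). Gdf5 was low throughout, at 5.6 to 30.7 in the oviducts and 0 to 16.9 in the tumors (-0.68 ± 0.38 (SE), adjusted p = 0.202).

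Without tumor 4, 6 more genes were called higher in the same fit, namely Bmp4 (2.29, adjusted p = 0.00138), Bmp7 (1.18, adjusted p = 0.00873), Gdf7 (2.86, adjusted p = 4.7e-05), Gdf10 (1.61, adjusted p = 0.000532), Nog (2.08, adjusted p = 0.0093) and Smad9 (2.41, adjusted p = 0.00149). Bmp3 was called lower (-1.66, adjusted p = 0.0106), and Ltbp2 and Gdf6 lost their call, so that 20 genes were higher and 2 lower. Each library was left out in turn, and tumor 4 is given here with its values already seen. It was the lowest tumor in those 6 genes and the highest in Bmp3, so leaving it out moves their changes this way by construction. These p-values are no separate evidence about those genes. Calls over all genes rose as well without tumor 4, from 1269 higher and 2356 lower to 1585 and 2585. Without tumor 3 they were 1464 and 2370. Among all 54 genes, tumor 4 was the lowest tumor in 23, or 42.6%, against 27.5% of the 17183 genes without a tie for the lowest tumor. Tumor 4 was also the library with the fat cell, macrophage and mesothelium marker sums that were highest among the tumors. Its endothelial, ciliated, and fibroblast and stroma marker sums were the lowest among the tumors. The part of these cells in its values was not tested.

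**Figure D3:**
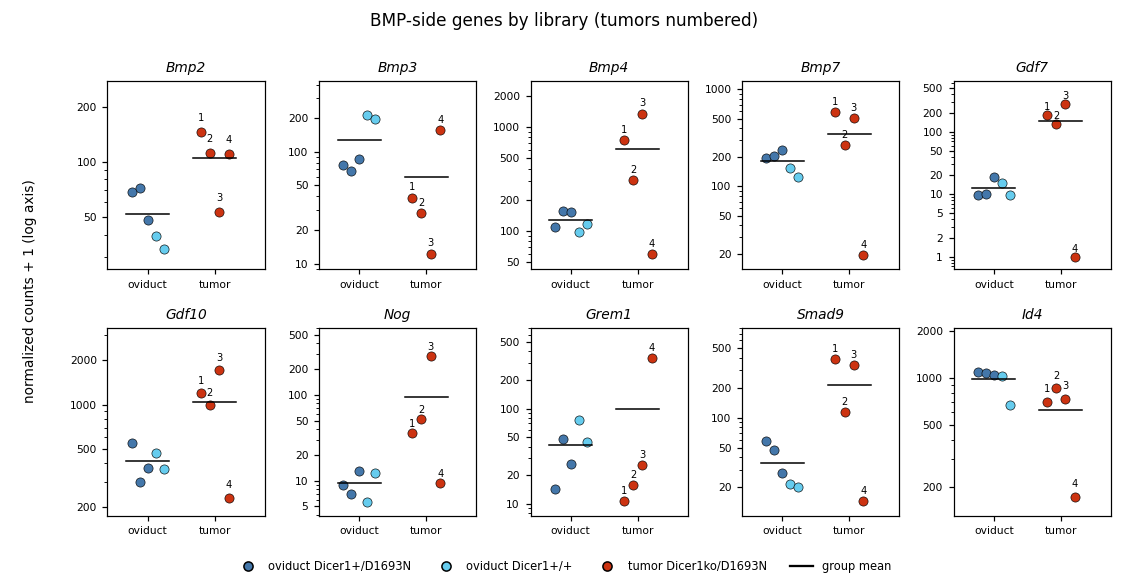
Normalized counts plus 1, on a log axis that differs between panels, of 10 genes of the BMP side that were chosen for display after their values were seen; points are libraries, numbers mark the tumors and lines are group means. Tumor 4 lies below tumors 1 to 3 in Bmp4, Bmp7, Gdf7, Gdf10, Nog, Smad9 and Id4, and above them in Bmp3 and Grem1.

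The activin, inhibin and AMH subunits were not called in either direction, and Inhba and Inha varied more between oviducts than any other of the 54 genes (SD of the log2 values 1.94 and 1.40). Inha, the alpha subunit that makes an inhibin, was at 375, 949, 61.7, 237 and 107 in the oviducts and 173, 36.3, 91.2 and 36.8 in the tumors. Inhba, a beta subunit, ran from 11.2 in oviduct 5 to 845 in oviduct 2, with 67.0, 89.7, 311 and 685 in the tumors, which fell within that range. Amh, the hormone under which the Müllerian duct regresses in males, was at 10.0, 32.2, 3.0, 38.5 and 23.4 against 1.0, 3.4, 5.6 and 4.2, so that oviduct 3 fell among the tumors. The changes were -1.48 ± 0.68 (SE) for Inha, 0.89 ± 0.96 (SE) for Inhba and -0.97 ± 0.35 (SE) for Amh (adjusted p = 0.124, 0.522 and 0.0585). Inhbb, the subunit with the highest mean, was at 445, 686, 597, 382 and 899 against 909, 296, 18.0 and 898, and tumor 3 stood far below every other library (-0.92 ± 0.82 (SE), adjusted p = 0.431). Granulosa cells of the ovary make all 4 subunits, and 10 markers of granulosa and steroid-making ovarian cells summed to 26544 in oviduct 1, 4379 in oviduct 2, 758 in oviduct 3, 2806 in oviduct 4 and 1415 in oviduct 5, against 347 to 821 in the tumors. Of these markers 3 of 10 were lower. Cyp19a1 and Fshr were at 0 in every tumor, but they were low in the oviducts too, at 0 to 56.1 and 0 to 6.3. Foxl2 was at 255, 312, 330 and 16.8 in the tumors against 153 to 372 in the oviducts. Ihh was at 33.0, 441, 404 and 4.2 against 29.9 to 272, and neither was called. The part of ovarian cells in the subunits' values was not tested.

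Type I receptors showed a rise of Tgfbr1 and a fall of Bmpr1b. Tgfbr1 (chr4:47353222-47414931), the kinase that passes the TGF-beta signal to Smad2 and Smad3, was at 970.0, 697, 673, 722 and 607 in the oviducts and 1798, 1347, 2585 and 1484 in the tumors. The lowest tumor, tumor 2, was above the highest oviduct, and the change was 1.25 ± 0.20 (SE) (adjusted p = 0.00121). Bmpr1b (chr3:141837136-142169425), a type I receptor for BMPs and GDFs with a role in the fertility of female mice, was at 1425, 1321, 1502, 1151 and 943 against 194, 238, 224 and 187. The tumors agreed closely with each other, at a mean of 211 ± 24.3 (SD, n = 4) against 1268 ± 224 (SD, n = 5), or 6.01 times less than in the oviducts (-2.46 ± 0.16 (SE), adjusted p = 2.95e-06). The ciliated markers fell over the same libraries (sums of 21698 to 34720.1 against 134 to 1014), and their part in the fall of Bmpr1b was not tested. Acvr1, another BMP type I receptor, was at 262, 268, 258, 222 and 229 against 534, 346, 729.6 and 428; no tumor overlapped an oviduct and its adjusted p was 0.00587, but the change of 0.93 ± 0.20 (SE) was under the minimum. The activin receptor Acvr1b was at 1015, 1011, 1152, 1082 and 1225 against 582, 678, 471 and 1096, with tumor 4 within the oviducts (-0.69 ± 0.21 (SE), adjusted p = 0.0322, also under the minimum). Acvrl1, the receptor of endothelial cells, and the BMP receptor Bmpr1a were not called (changes of 0.50 ± 0.18 (SE) and 0.43 ± 0.21 (SE), adjusted p = 0.0601 and 0.156). Bmpr1a was the type I receptor with the highest mean count, at 1639, 1392, 1571, 1404 and 1401 and 2875, 1515, 2564 and 1422.

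Per kilobase of exon, Acvr1b (248 ± 20.8), Bmpr1a (233 ± 18.2) and Bmpr1b (213 ± 37.6) had the highest mean levels among type I receptors in the oviducts (SD, n = 5), and these 3 neighbors lay within about 1 SD of each other. Acvrl1 (122 ± 13.1) and Tgfbr1 (112 ± 21.2) followed, also within their spread, and Acvr1 (51.3 ± 4.34) was lowest. In the tumors the order was Bmpr1a (329.7 ± 116), Tgfbr1 (276 ± 84.8), Acvrl1 (178 ± 43.1), Acvr1b (159.9 ± 61.8), Acvr1 (106 ± 34.3) and Bmpr1b (35.4 ± 4.08, SD, n = 4). Bmpr1b was below each of the others by more than the SDs, and the means of Bmpr1a and Tgfbr1 differed by less.

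Type II receptors, which bind the ligand first and activate the type I kinase, gave smaller log2 changes, and none of the 4 was called. Tgfbr2, the type II receptor of TGF-beta and the one with the highest mean count, was at 2231, 2032, 1849, 1792 and 1713 in the oviducts and 3432, 2479, 2405 and 3171 in the tumors. Every tumor was above every oviduct, and the adjusted p was 0.017, with a change of 0.56 ± 0.15 (SE) that stayed under the minimum. Bmpr2, Acvr2a and Acvr2b gave log2 changes of 0.42 ± 0.19 (SE), -0.17 ± 0.19 (SE) and 0.12 ± 0.32 (SE) (adjusted p = 0.128, 0.544 and 0.814). The co-receptor Tgfbr3, which presents TGF-beta2 and inhibin, was at 2019, 1742, 1528, 1531 and 1054 against 3225, 811, 826 and 1137, with tumor 1 above and tumors 2 and 3 below the oviducts (-0.29 ± 0.38 (SE), adjusted p = 0.595).

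Since let-7 is a 5p microRNA and one of the abundant ones of adult tissue, its seed match was searched in the annotated 3' ends of these messages. The mature microRNA (RefSeq, GRCm38.p6, chr13:48538239-48538260, minus strand) is shown with its seed, bases 2 to 8, in capitals, followed by 29 bases around each match, with the 7 bases that pair with the seed, CTACCTC on the sense strand, in capitals.
let-7a-5p: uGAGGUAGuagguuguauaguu
Tgfbr1: aggctggttgttCTACCTCactgagagaa
Gdf6, first match: aaaccacaaggcCTACCTCtgaccgggtg
Gdf6, second match: ttttgaaactgtCTACCTCactataatac
Gdf10: cttcatgaaatgCTACCTCccaattcctg
Acvr1b: cgtcgtggaggcCTACCTCttgtttctgc
Tgfbr3: tttgtactgtaaCTACCTCatggtttgaa
The matches were read on the longest annotated 3' end of each gene (GENCODE M21, GRCm38). With Smad2, 6 of 52 genes with a 3' end in the annotation held a match, or 11.5%, against 10.1% of 15712 genes. The median length of the 3' ends was 1649 bases for the pathway genes and 1108 for all genes, and a longer one has more places for a match. Of the 6 genes with a match, Gdf6 and Tgfbr1 were called higher and none lower. The median log2 change was 0.77 with a match and 0.61 without among the pathway genes, and 0.04 and -0.01 among all genes. MicroRNA levels were not measured in these poly-A libraries, and a match is a description of the letters only.

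Among the antagonists and follistatin-like proteins, Fstl1 and Chrd rose. Fstl1 (chr16:37776873-37836514), a secreted glycoprotein of stromal cells that can bind BMP4, had the largest change of all 54 genes, at 1357, 1295, 1011, 1872 and 1172 in the oviducts and 10950.5, 6209, 9456 and 7147 in the tumors. The groups were wide apart, the mean in the tumors was 6.29 times that in the oviducts, and the change was 2.63 ± 0.22 (SE) (adjusted p = 1.28e-05). Over the same libraries 5 of 10 fibroblast and stroma markers were higher, with sums of 29395 to 60045 in the oviducts and 141363 to 149592 in the tumors. Col1a1, Col1a2 and Col3a1 had the highest counts of that list in every tumor, and Dcn, Dpt, Lum, Thy1 and Vim were not called. The part of stromal cells in the change of Fstl1 was not tested. Chrd (chr16:20733127-20742384), which encodes chordin, an antagonist that holds BMPs and that the protease Bmp1 cuts, was at 108, 91.3, 61.7, 107 and 50.2 against 484, 268, 556 and 135, with tumor 4 nearest to the oviducts (1.74 ± 0.38 (SE), adjusted p = 0.00627). Noggin, from Nog, another BMP antagonist, was at 7.8, 6.0, 11.9, 4.7 and 11.2 in the oviducts and 35.0, 51.1, 284 and 8.4 in the tumors. Tumors 1 to 3 were above every oviduct and tumor 4 lay among them, and the change of 1.57 ± 0.58 (SE) was not called (adjusted p = 0.0629). Grem1 had the opposite arrangement, at 13.4, 47.2, 24.9, 75.5 and 43.5 and 9.7, 14.8, 24.8 and 341, with tumor 4 far above every other library (0.12 ± 0.70 (SE), adjusted p = 0.914). Fstl3, which binds activin, was at 103, 92.8, 86.6, 73.1 and 104 against 144, 168, 158 and 274; the groups did not overlap and the adjusted p was 0.014, with a change of 0.85 ± 0.22 (SE) under the minimum. Fst, the follistatin gene, was at 34.6 to 181 in the oviducts and 81.1 to 242 in the tumors and was not called (0.72 ± 0.41 (SE), adjusted p = 0.214).

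The receptor-activated Smads and Smad4 were not called. Smad1, of the BMP branch, was at 669.7, 526, 479, 501 and 460.0 in the oviducts and 1107, 814, 775 and 715 in the tumors, and Smad3, of the TGF-beta branch, at 857, 791, 821, 667 and 510.2 and 1097, 857, 1319.5 and 948. In both, every tumor was above every oviduct, though in Smad3 by 857.4 in tumor 2 against 857.3 in oviduct 1. The changes were 0.67 ± 0.16 (SE) and 0.53 ± 0.18 (SE), with adjusted p = 0.0117 and 0.0532. Smad5 had the highest mean, at 2019, 2148, 2273, 1709 and 1776 against 1588, 1426, 2298 and 1259, with tumor 3 above and the other tumors below every oviduct (-0.30 ± 0.18 (SE), adjusted p = 0.239). Smad9, the least read of the 6, was at 58.0, 46.4, 26.9, 20.4 and 19.0 against 388, 114, 341 and 13.7, with tumors 1 to 3 above and tumor 4 below every oviduct (1.63 ± 0.67 (SE), adjusted p = 0.09). Smad2 and Smad4, the latter shared by both branches, gave 0.52 ± 0.21 (SE) and 0.05 ± 0.14 (SE) (adjusted p = 0.0883 and 0.809). The change of Smad4 was -0.02 under quantile normalization, so its direction depends on the scaling.

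Both inhibitory Smads were higher. Smad6 (chr9:63953076-64022059), which acts mainly on the BMP branch, was at 226, 234, 200.0, 182 and 115 in the oviducts and 645, 493, 676 and 364 in the tumors. Smad7, which acts on both branches, was at 285, 265, 215, 299.5 and 206 and 1338, 589, 659 and 828. In neither gene did a tumor overlap an oviduct, tumor 4 was lowest for Smad6 and tumor 1 highest for Smad7, and the changes were 1.41 ± 0.24 (SE) and 1.61 ± 0.23 (SE) (adjusted p = 0.00151 and 0.000539). Their ratios of means were 2.85 and 3.36, and those of the TGF-beta ligands were 3.07 (Tgfb1), 3.16 (Tgfb2) and 1.245 (Tgfb3). A link between these genes was not tested.

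The Id genes encode helix-loop-helix proteins that lack a DNA-binding region and hold differentiation factors of that family inactive. Id1 (chr2:152736251-152737410) was at 463, 477, 466, 409.5 and 297 in the oviducts and 1026, 3009, 1280.1 and 1916 in the tumors, and Id3 (chr4:136143497-136145755) at 407, 451, 479, 498 and 291 and 1723, 2745, 2400.3 and 1306. In both the groups were apart and tumor 2 was highest, with changes of 1.94 ± 0.29 (SE) and 2.17 ± 0.23 (SE) (adjusted p = 0.000601 and 7.15e-05). Id2 (chr12:25093799-25097140) was at 1015, 937, 857, 1143 and 635 against 2490.0, 2957, 2671 and 1043: tumors 1 to 3 were above every oviduct, and tumor 4 lay within their range (1.22 ± 0.30 (SE), adjusted p = 0.0105, and 0.0568 against the Dicer1+/+ oviducts alone). Id4 did not rise, with 1095, 1068, 1042, 1034 and 669 in the oviducts and 703, 858, 736 and 170.4 in the tumors. Tumors 1 to 3 were within the range of the oviducts, and tumor 4 was below every library (-0.84 ± 0.40 (SE), adjusted p = 0.138). Per kilobase of exon, Id2 (376 ± 77.8) and Id1 (364 ± 64.5) were level in the oviducts within the spread, above Id4 (255 ± 45.8) and Id3 (238 ± 45.9) (SD, n = 5). In the tumors Id1 (1559 ± 762), Id3 (1141 ± 363) and Id2 (939 ± 350.0) overlapped in their spread, and Id4 was lowest (160.3 ± 79.3, SD, n = 4).

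**Figure D4:**
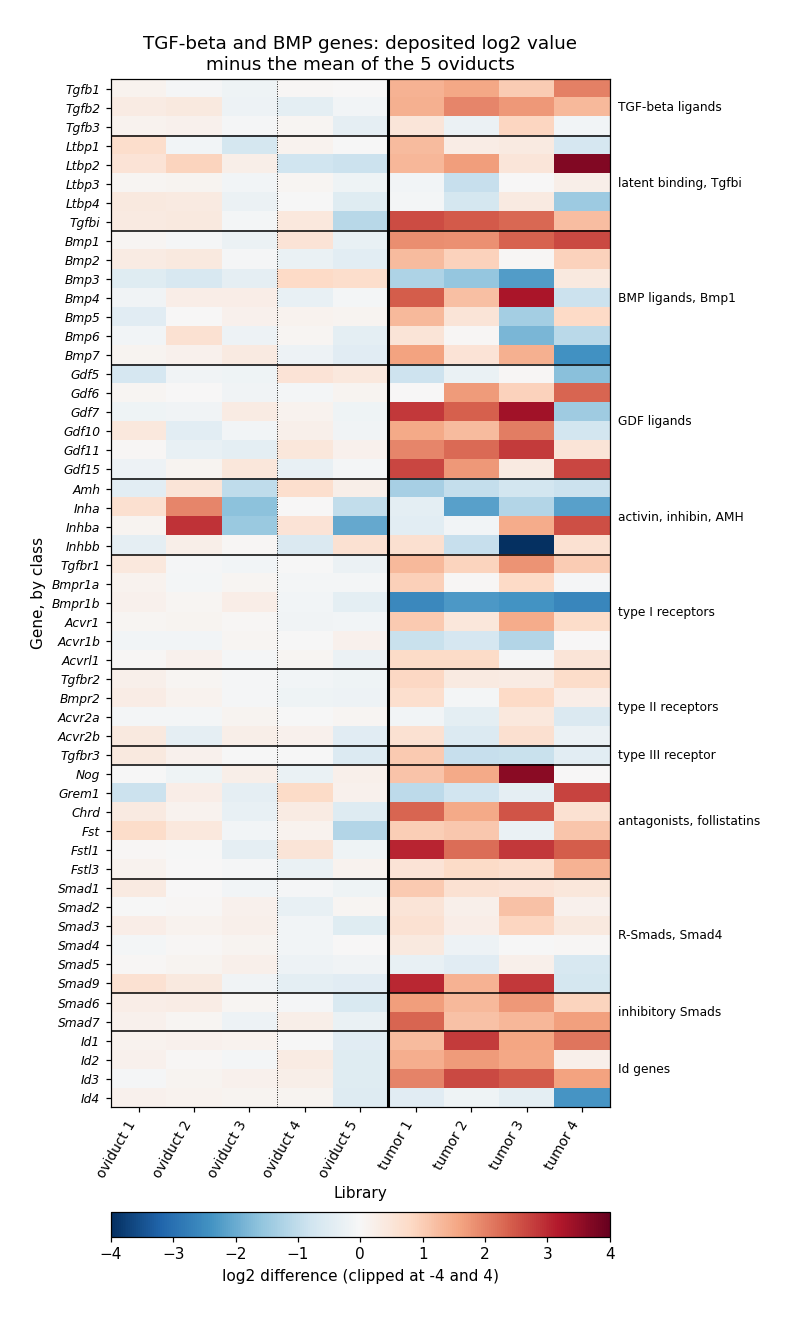
Deposited log2 value of each of the 54 genes in each library minus the mean of the 5 oviducts, with colors clipped at -4 and 4, genes in rows by class and libraries in columns; the solid line separates tumors from oviducts and the dotted line the 2 oviduct genotypes. Tgfb1, Bmp1, Fstl1, Id1 and Id3 are higher in all 4 tumor columns and Bmpr1b is lower in all 4, while Bmp4, Bmp7, Gdf7, Nog and Smad9 are higher in tumors 1 to 3 and not above the highest oviduct in tumor 4.

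Smad6 and the Id genes are known targets of BMP signaling, and the RefSeq promoters of Smad6, Id2, Id3 and Id4 (that of Id1 was not used here; GRCm38.p6, 250 bases before and 50 after the annotated start) are shown for the palindromic Smad site GTCTAGAC and for GGCGCC, a motif that BMP-type Smads can bind. Both motifs read the same on either strand and do not overlap each other. Capitals mark a match.
Smad6, chr9:64022010-64022309, minus strand: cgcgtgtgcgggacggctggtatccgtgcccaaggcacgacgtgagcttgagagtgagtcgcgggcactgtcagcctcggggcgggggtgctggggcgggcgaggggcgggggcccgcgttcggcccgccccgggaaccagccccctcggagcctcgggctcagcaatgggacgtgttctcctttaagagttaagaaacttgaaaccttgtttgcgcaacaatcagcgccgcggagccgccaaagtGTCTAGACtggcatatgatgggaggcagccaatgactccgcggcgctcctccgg
Id2, chr12:25096043-25096342, minus strand: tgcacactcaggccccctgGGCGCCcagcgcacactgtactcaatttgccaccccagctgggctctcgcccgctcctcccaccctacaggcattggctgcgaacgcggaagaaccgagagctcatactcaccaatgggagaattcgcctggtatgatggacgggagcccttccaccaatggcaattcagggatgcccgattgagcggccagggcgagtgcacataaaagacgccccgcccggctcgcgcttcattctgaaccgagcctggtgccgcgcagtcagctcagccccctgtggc
Id3, chr4:136143572-136143871, plus strand: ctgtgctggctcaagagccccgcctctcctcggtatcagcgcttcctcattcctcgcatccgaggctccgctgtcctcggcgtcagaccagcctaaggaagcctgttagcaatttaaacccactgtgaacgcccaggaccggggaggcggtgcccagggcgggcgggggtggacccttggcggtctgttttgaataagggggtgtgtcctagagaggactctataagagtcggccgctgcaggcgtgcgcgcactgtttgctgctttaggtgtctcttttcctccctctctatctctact
Id4, chr13:48260866-48261165, plus strand: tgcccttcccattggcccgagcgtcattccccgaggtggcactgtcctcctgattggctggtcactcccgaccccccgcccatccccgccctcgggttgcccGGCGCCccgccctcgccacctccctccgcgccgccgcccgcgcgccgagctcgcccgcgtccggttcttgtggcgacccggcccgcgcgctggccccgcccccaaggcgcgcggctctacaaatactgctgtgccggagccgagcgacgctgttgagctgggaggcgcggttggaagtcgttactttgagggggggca
The Smad6 promoter held GTCTAGAC, which began 4 bases before the start. That motif was found in 0.213% of 32851 promoters and in no other of the 38 pathway genes with a promoter in the table. Id2, which rose, and Id4, which did not, both held GGCGCC, at 231 and 148 bases before the RefSeq start, and the Id3 window held neither motif. RefSeq and GENCODE starts differ for these Id genes. The windows of Id2 and Id3 lie inside the GENCODE spans given above, and that of Id4 ends before its GENCODE start at 48261228. Positions and absences of a motif therefore hold for the RefSeq windows only. GGCGCC was found in 15 of the 47 promoters of these 38 genes, or 31.9%, against 11.9% of all promoters, and the median GC content was 65.0% in the former against 52.7% in all. Of the 13 genes with that motif 4 were called higher and none lower, and of the 25 without it 8 were higher and 1 lower. A match describes the letters of this window and no binding was measured.

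Further genes of the pathway were read from a list of 96, of which 85 were measured. Of the 85, 25 were higher (29.4%), 4 were lower (4.71%) and 56 were not called, against 6.53% higher and 12.1% lower of all genes. The median log2 change was 0.41, and -0.05 over all genes. Among genes known as targets of TGF-beta or BMP signaling 14 of 21 were higher (66.7%) and none lower, with a median change of 2.02. This list, like the others, was chosen with earlier results of these data known. The list shares Col1a1 and Col1a2 with the fibroblast markers above. Tnc, a matrix glycoprotein, had the largest change, from 179, 190.2, 83.6, 330.1 and 74.8 in the oviducts to 4097, 2826, 2546 and 3441 in the tumors (4.22 ± 0.36 (SE), adjusted p = 1.53e-05). Other large changes were those of the collagen gene Col1a1 (3.06 ± 0.36 (SE)) and Junb (2.90 ± 0.40 (SE)), a subunit of AP-1 (adjusted p = 0.000136 and 0.000406). Not all targets moved this way: Tagln, a smooth muscle gene, gave -1.09 ± 0.70 (SE), Cdkn2b -0.52 ± 0.40 (SE), Postn -0.08 ± 0.60 (SE) and Hey1 -0.07 ± 0.23 (SE) (adjusted p = 0.268, 0.349, 0.932 and 0.84). Tagln was 15796, 5349.7, 815 and 4354 in the tumors, and smooth muscle markers had their highest tumor sum in tumor 1 and their lowest in tumor 3, as Tagln did. The part of smooth muscle cells in the values of Tagln was not tested.

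Of 11 genes of latent TGF-beta activation 5 were higher and none lower. Fbn2 and Fbn1 encode fibrillins, to which the latent complex is tied. Fbn2 was at 108, 67.4, 22.9, 72.3 and 49.1 in the oviducts and 2307, 1305, 3316 and 408 in the tumors, with all tumors above (4.21 ± 0.54 (SE), adjusted p = 0.000256). Thbs1, an activator of latent TGF-beta, went from 1328, 1297, 891, 1229 and 1052 to 10932, 3671, 2261 and 14609.6 (2.38 ± 0.48 (SE), adjusted p = 0.00407), Fbn1 changed by 2.09 ± 0.26 (SE) and Emilin1, which holds back processing of the TGF-beta precursor, by 1.46 ± 0.30 (SE) (adjusted p = 0.000206 and 0.00467). The fifth was the integrin subunit Itgb1 (1.11 ± 0.22 (SE), adjusted p = 0.00385). Among 10 receptors and co-receptors 2 were higher and 3 lower. Eng, an endothelial co-receptor, changed by 1.83 ± 0.37 (SE) and Lrrc32, which anchors latent TGF-beta at the cell surface, by 1.50 ± 0.27 (SE) (adjusted p = 0.0044 and 0.00196); 7 of 10 endothelial markers were higher too, and their part was not tested. Amhr2, the receptor of AMH, was at 58.0, 151, 38.8, 90.4 and 65.9 in the oviducts and 6.8, 29.5, 27.0 and 1.1 in the tumors, all below (-1.67 ± 0.43 (SE), adjusted p = 0.0138). Rgmb, a BMP co-receptor, fell from 1251, 1126, 1154, 1371 and 1138 to 562, 483, 484 and 475 (-1.23 ± 0.12 (SE), adjusted p = 3.15e-05). Cfc1, a co-receptor of Nodal, was at 0 in every tumor and at 8.9, 10.5, 18.9, 0 and 15.6 in the oviducts (-1.22 ± 0.34 (SE), adjusted p = 0.0192). A count of 0 allows up to 2.91 (tumor 1) to 3.41 (tumor 2) normalized counts in the tumors, from counting error only, so no exact ratio can be given.

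Of 14 extracellular antagonists and modulators, Bmper (1.70 ± 0.44 (SE)), Bgn (1.56 ± 0.34 (SE)) and Pcolce (1.43 ± 0.39 (SE)) were higher (adjusted p = 0.014, 0.00592 and 0.0176) and Sost (-1.05 ± 0.34 (SE), adjusted p = 0.0411), read at 0 to 16.9 in the oviducts and 0 to 1.0 in the tumors, was lower. Of 15 Smad regulators only Skil, a repressor of Smads that TGF-beta induces, was called (1.28 ± 0.22 (SE), adjusted p = 0.00179). Of the 8 other ligands and the 6 genes of the non-Smad branch through TAK1 none was called, with log2 changes of -1.14 to 1.08 and -0.05 to 0.73; 2 of the 6 passed the adjusted p alone.

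**Figure D5:**
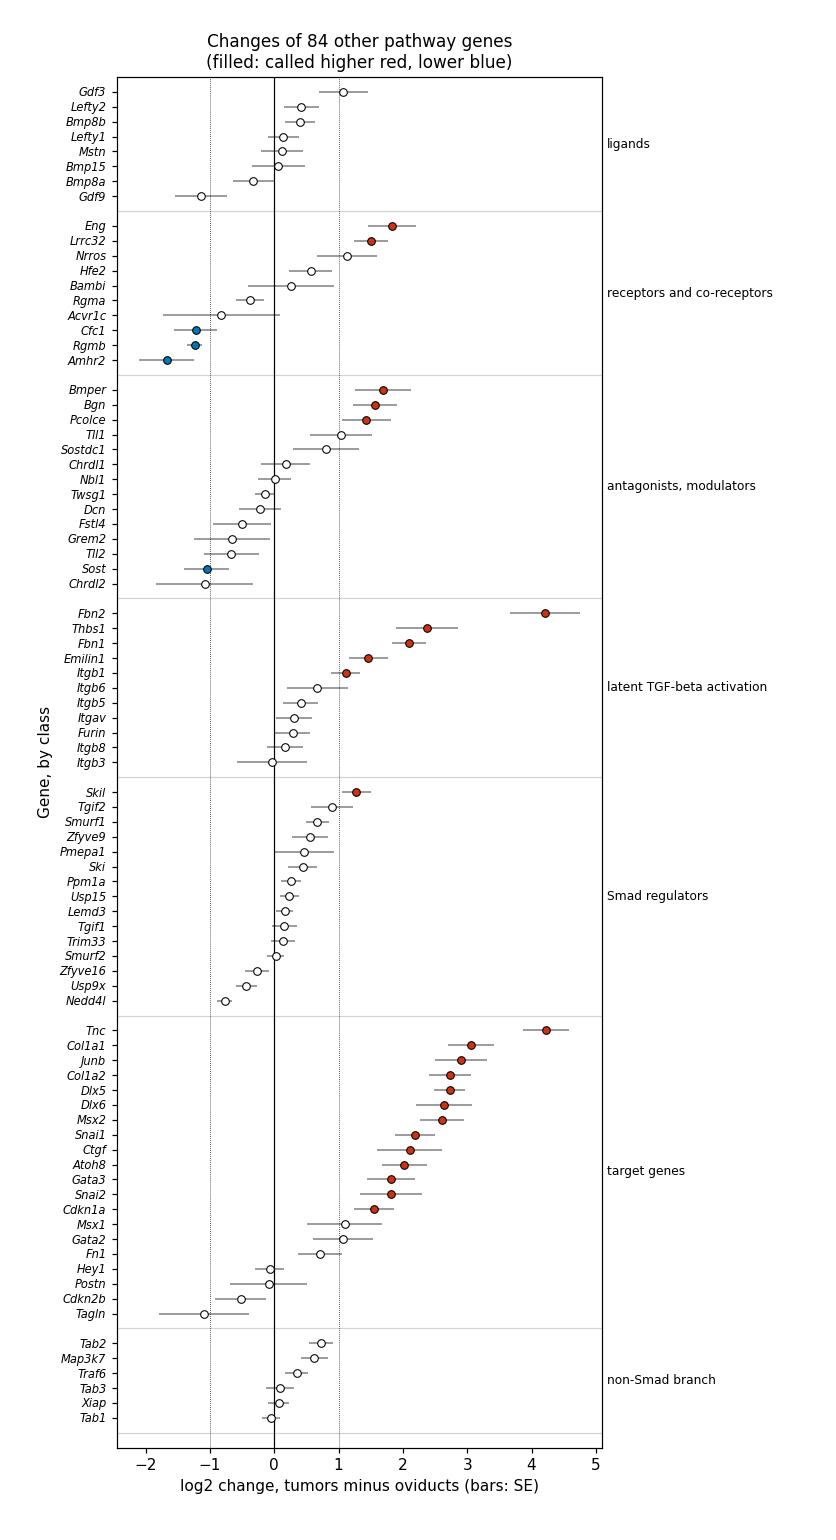
Log2 change between 4 tumors and 5 oviducts of 84 of the 85 other genes of the pathway, with the standard error as a bar, in 7 lists; filled points were called and dotted lines mark -1 and 1. The target genes run from -1.09 (Tagln) to 4.22 (Tnc), and the ligands and the non-Smad branch hold no filled point.

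Between the oviduct genotypes, Dicer1+/D1693N (n = 3) against Dicer1+/+ (n = 2), limma called 0 of the 54 genes, against 4 of all 19435, or 0.0206%. That fit also held the tumors and shared the spread of each gene between tumors and oviducts. Its SEs and p-values, given below, therefore do not measure the spread between oviducts alone. At an unadjusted p under 0.05 there was 1 gene, Bmpr1b, or 1.85% of the 54 against 2.75% of all genes, and in a fit of the 5 oviducts alone there were 12 genes, or 22.2% of the 54 against 14.7% of all genes, of which 0 were called. The log2 differences ran from -1.23 (Bmp3) to 1.38 (Ltbp2), with a median of 0.20. Ltbp2 was at 496, 639, 396, 184 and 176 in oviducts 1 to 5, so the 3 Dicer1+/D1693N oviducts were above both Dicer1+/+ oviducts (1.38 ± 0.74 (SE), adjusted p = 1.0). For Bmp3 the order was the reverse (-1.23 ± 0.63 (SE), adjusted p = 1.0). A p that misses the threshold does not show that the genotypes were alike.

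The tumors differed more among themselves than the oviducts did. The SD of the log2 values was larger in the tumors in 46 of 54 genes, or 85.2%, against 87.0% of all genes, with a median SD of 0.61 in the tumors and 0.30 in the oviducts. Tumor 3 was the highest tumor in 19 of the 54 genes (35.2%), tumor 1 in 17 (31.5%), tumor 4 in 12 (22.2%) and tumor 2 in 6 (11.1%). Over the 17183 genes without a tie for the lowest tumor these shares were 29.2%, 25.9%, 26.8% and 18.1%, with the same tumor lowest in the ranking. Among the 16 genes called higher, tumor 4 was the lowest tumor in 7 (43.8%, against 27.5%) and the highest in 5 (31.2%, against 26.8%), the latter being Tgfb1, Ltbp2, Bmp1, Gdf6 and Gdf15.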

How the data were processed

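Poly-A RNA of 9 mouse libraries was prepared with a paired-end kit, per the labels' protocols. Per the submitters' processing notes, reads were handled with FastQC 0.11.5, STAR 2.5.3a and HTSeq on GRCm38 (mm10); annotation, strand setting and HTSeq version are not given in the sources used here, so reads of a gene and an antisense partner cannot be told apart. The authors deposited log2-scale values with a shared floor of 3.427, which invert in closed form to normalized counts that are whole reads in each library for 100% of values (tolerance 0.05); the transformation itself is not stated. Every gene had at least 10 reads in all. The main test was limma 3.58.1 (R 4.3.3, eBayes with trend) on the deposited log2 values of all 19435 genes, with Benjamini-Hochberg adjustment and calls at adjusted p under 0.05 and a log2 change of at least 1; a 2-group model compared tumors with oviducts and a 3-group model the oviduct genotypes, and the test was checked on simulated data. No batch is in the labels. Exon lengths and positions came from GENCODE M21, promoters and the microRNA from RefSeq (38 of 54 genes matched a promoter), and 3 reads were the floor for a count of 0. The genes and lists were chosen with earlier results of these data known. Genes given in every library were those called, those whose groups did not overlap and the highest of each class, and others were added after their values were seen; of other pathway genes, the 4 largest called changes per list and direction, except 1 gene that is not reported here. Alternatives were quantile normalization, a filter on genes with the lowest 25% of means, limma-voom on recovered reads, no trend, weights per group, either oviduct genotype alone, each library left out and a replicate block.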

Additional observations from a re-analysis of the deposited data

Results flagged for a closer look

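In 5 of 108 sets of values, taken as 1 gene in the oviducts or in the tumors, 1 library stood apart from the others by Dixon's test on the log2 values, and chance alone marks about 5% of such sets. Normalized counts are printed here, and on that scale the test can mark other sets. For Bmp5 it was oviduct 1, with 4.5 normalized counts against a range of 10.5 to 12.9. For Fst it was tumor 3, with 81.1 against 219.5 to 241.9. For Id2 it was tumor 4, with 1043.2 against 2490.0 to 2957. Id4 stood apart on both sides, with 170.4 for tumor 4 against 703 to 859 and 668.8 for oviduct 5 against 1034 to 1095.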

How the results depend on the processing

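The 16 genes called higher were 14 to 20 over the alternatives except for the fit with a replicate block, which gave 13, and the 1 called lower was 1 or 2; it was 2 with the Dicer1+/+ oviducts alone and with adjusted p alone, and 1 to 2 with each library left out. Of the 17 called genes 12 kept their call under all 17 alternatives; Ltbp2 and Gdf6 lost it under 12 and 11 (adjusted p up to 0.18 and 0.169), Gdf11 and Id2 with the Dicer1+/+ oviducts alone (0.081 and 0.0568) and Gdf15 under the block (0.0554). The block paired tumors 1 to 4 with the oviducts of the same number, whose deviations correlated at 0.117, 0.061, -0.089 and 0.006. Of the 4 tumors 1 correlated best with its own number, and 1 gene was lower under the block. The sources used here do not say whether libraries of the same number belong together. These correlations cannot decide it, since a shared animal or preparation need not show in them. The other pathway genes were 25 to 31 higher and 3 to 6 lower with a library left out, and 26 and 2 under quantile normalization. No gene was called between oviduct genotypes under any alternative. In 8 uncalled genes the sign changed with a library left out, over log2 changes of -0.008 to 0.64 (Ltbp1), -0.34 to 0.039 (Ltbp3), -0.02 to 0.86 (Bmp5), -0.16 to 1.18 (Bmp7), -1.44 to 0.12 (Inhbb), -0.06 to 0.34 (Acvr2b), -0.73 to 0.52 (Grem1) and -0.061 to 0.14 (Smad4). Grem1 was also -0.13 with limma-voom and -0.35 with the Dicer1+/+ oviducts alone, and Smad4 -0.019 under quantile normalization. The cause of these changes was not tested. At 8504993 or more reads a library, levels near 3 normalized counts (Amh, Gdf7, Gdf5, Bmp5) rest on few reads.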
